A study of Mus musculus with 16 samples.

Results

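Mitochondrial ribosomal protein genes were followed across mouse embryonic stem (ES) cells, induced pluripotent stem (iPS) lines and mouse embryonic fibroblasts (MEFs). The members were all genes whose array target name is Mrpl or Mrps, a number and at most 1 letter, which gave 123 of 46643 probes and 74 of 32094 genes. Of these, 68 genes, among 15642 genes in all, had a probe above background on at least 2 arrays and were tested. Mrpl21, Mrpl41, Mrps14, Mrps22 and Mrps36 were above background on no array, and Mrpl32 on 1 array.

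Total RNA was hybridised to 16 Illumina MouseWG-6 arrays, 2 labelled biological replicates for each of 8 groups. The iPS groups were 5 lines: OSE #T8, OSE #T9, OSCE #8, OSCE #13 and OSCK. In common use the letters abbreviate reprogramming factors, O for Oct4 (the product of Pou5f1), S for Sox2, C for c-Myc, E for Esrrb and K for Klf4, a reading that the labels leave unstated. Lines whose name holds an E, 4 in all, are called Esrrb lines here, and each group samples 1 line. The MEFs were of 2 types, Actin-GFP and Pou5f1-GFP, which carry a green fluorescent protein transgene under the Actin or the Pou5f1 promoter. The ES cells were of the R1 line. ES and iPS cells were cultured on MEF feeders, so their RNA can include feeder RNA. The design compares the Esrrb lines with ES cells and with MEFs.

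Mitochondria make a small set of respiratory chain subunits on ribosomes of their own. The ribosomal RNA comes from mitochondrial DNA, while all protein subunits are encoded in the nucleus, translated in the cytosol and imported. Genes named Mrpl mostly encode proteins of the large subunit, which joins amino acids, and genes named Mrps mostly encode proteins of the small subunit, which reads the messenger RNA. Some descend from bacterial ribosomal proteins, and others exist in mitochondria only. Mouse ES cells are known to divide fast and to keep immature mitochondria.

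The arrays fell into sets that share slides. OSCE #13, OSE #T8 and OSE #T9 lay on other slides (2 slides) than OSCK, OSCE #8, the MEFs and the ES cells (also 2 slides), so that slide and group cannot be told apart in a direct comparison between the sets. Within a set, the first replicates lay on 1 slide and the second on another. Between 35.5% and 38.8% of probes were above background on an array, and 67 or 68 of the tested members. The lowest correlation of 2 replicates, taken across genes that are not independent, was 0.989 (OSE #T9). Of 8 markers of pluripotent cells, all were above background in every ES and iPS group, with summed linear signals of 9653 to 15025 in the iPS lines, 174 to 195 in MEFs and 12834 to 13990 in ES cells. Fibroblast markers summed to 4359 to 6349 in the iPS lines, 23979 to 30174 in MEFs and 3075 to 3409 in ES cells. In bulk RNA, fewer cells of a type and less RNA per cell cannot be told apart.

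Promoter sequences were at hand for 65 of the 74 members (RefSeq, mouse GRCm38.p6, 250 bases before to 50 after each gene's start). They are shown here because factors of the ETS family such as GABPA, together with NRF1 and YY1, are known regulators of nuclear genes for mitochondrial proteins. The windows below run from 150 bases before to 30 after the start given in the promoter table, which for Mrpl22 and Mrps27 lies inside the gene's annotated span, on the strand of the gene, with capitals on the ETS letters CCGGAAG, the NRF1 letters GCATGCGC and the YY1 letters AAGATGGC on either strand. The first 4 windows are those of the 4 members with letters of 2 of these factors within the window. Mrps11 starts 42 bases from Mrpl46, another member, on the opposite strand, and Mrps6 was lower in Esrrb lines than in MEFs, against the direction of most members.
Mrps18a (chr17:46110854-46111033, + strand): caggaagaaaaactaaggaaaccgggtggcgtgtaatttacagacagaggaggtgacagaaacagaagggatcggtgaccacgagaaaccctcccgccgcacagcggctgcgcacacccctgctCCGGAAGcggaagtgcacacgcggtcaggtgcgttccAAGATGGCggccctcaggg
Mrps27 (chr13:99344636-99344815, + strand): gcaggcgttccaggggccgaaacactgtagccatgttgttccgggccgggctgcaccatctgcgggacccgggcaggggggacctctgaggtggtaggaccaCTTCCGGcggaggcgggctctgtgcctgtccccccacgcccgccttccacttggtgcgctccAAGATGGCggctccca
Mrpl22 (chr11:58171514-58171693, + strand): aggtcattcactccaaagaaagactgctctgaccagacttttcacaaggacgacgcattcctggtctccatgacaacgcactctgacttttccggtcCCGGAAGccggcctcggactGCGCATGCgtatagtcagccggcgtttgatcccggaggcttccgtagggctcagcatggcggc
Mrpl33 (chr5:31613801-31613980, + strand): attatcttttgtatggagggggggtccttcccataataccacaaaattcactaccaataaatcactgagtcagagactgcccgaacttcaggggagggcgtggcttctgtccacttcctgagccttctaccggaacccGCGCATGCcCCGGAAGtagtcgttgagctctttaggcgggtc
Mrps11 (chr7:78782981-78783160, + strand): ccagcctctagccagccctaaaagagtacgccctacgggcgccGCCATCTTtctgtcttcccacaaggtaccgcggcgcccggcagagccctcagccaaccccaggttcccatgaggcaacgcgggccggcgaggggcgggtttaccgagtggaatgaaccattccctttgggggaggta
Mrps6 (chr16:92058186-92058365, + strand): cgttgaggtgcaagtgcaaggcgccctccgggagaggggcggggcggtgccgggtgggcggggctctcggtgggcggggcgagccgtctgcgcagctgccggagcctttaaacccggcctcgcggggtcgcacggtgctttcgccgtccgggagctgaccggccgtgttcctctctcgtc

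In the windows of Mrps18a and Mrps27 the ETS letters begin at positions -26 and -48 and the YY1 letters at 12 and 15, where 1 is the first base after the 150 that precede the start. The NRF1 letters of Mrpl22 and Mrpl33 begin at -33 and -12, beside ETS letters at -53 and -3. Mrps6 held none of the 3 motifs in this window and 3 GC boxes, the letters GGGCGG on either strand, counted without overlap.

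Over whole promoters of 300 bases in the table, ETS letters were found in 24 of 65 members (36.9%), against 18.2% of 9908 tested genes with a promoter. YY1 letters were found in 11 members (16.9%), against 4.88% of tested genes. NRF1 letters were found in 8 members (12.3%), against 5.62%. The members held fewer GC boxes (47.7% against 66.0%) and Myc E-boxes, the letters CACGTG (6.15% against 11.2%), and 7.69% against 10.2% held the TATA letters TATAAA. The Esrrb letters TCAAGGTCA were found in 0 of 65 member promoters and in 0.363% of those of tested genes. All motifs were searched on both strands, and a match or its absence describes these letters in this window only.

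Members were lower in MEFs than in ES cells. Of 68 members, 49 were called lower, 1 higher and 18 were not called (limma, adjusted p under 0.05 over all genes tested). Over all genes, 30.3% were called lower and 30.7% higher. The median log2 difference was -0.63 over members and -0.02 over all genes tested, and 15 members were called with at least a 2-fold difference. For 53 members every MEF array lay below every ES array, and for 1 above, where 65.0% of all genes did not overlap in either direction.

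The largest fall was that of Mrpl15, a large subunit protein with a bacterial counterpart. Its log2 signal was 9.27 and 9.19 in Actin-GFP MEFs and 9.50 and 9.42 in Pou5f1-GFP MEFs, against 11.03 and 11.22 in ES cells. All 4 MEF arrays were low, and the difference was 3.44-fold (log2 -1.78 ± 0.13 SE, adjusted p = 1.62e-08). Mrpl44, a mitochondrial large subunit protein with a fold like that of ribonuclease III, had 7.73 and 7.85 in Actin-GFP MEFs and 7.96 and 7.93 in Pou5f1-GFP MEFs, against 9.51 and 9.28 in ES cells. It fell by 1.53 ± 0.11 on the log2 scale (adjusted p = 8.44e-09).

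In the small subunit the largest fall was that of Mrps5, which has a bacterial counterpart. It had 9.67 and 9.69 in Actin-GFP MEFs and 9.78 in both Pou5f1-GFP MEF arrays, against 11.04 and 11.21 in ES cells (log2 -1.40 ± 0.09, adjusted p = 3.37e-09). The 4 fibroblast arrays lay within a narrow band far below both ES arrays. Mrps31, a protein found in mitochondrial ribosomes only, had 8.89, 8.79, 8.92 and 8.86 in the 4 MEF arrays, against 10.30 and 10.20 in ES cells (log2 -1.38 ± 0.10, adjusted p = 8.91e-09). Mrps18b had 9.05 and 8.94 in Actin-GFP MEFs and 8.76 and 8.96 in Pou5f1-GFP MEFs, against 10.24 and 10.22 in ES cells (log2 -1.30 ± 0.12, adjusted p = 1.59e-07).

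Other large subunit genes with falls above 2-fold were Mrpl18 (log2 -1.45), Mrpl47 (-1.41), Mrpl34 (-1.32), Mrpl11 (-1.29), Mrpl40 (-1.27), Mrpl35 (-1.19), Mrpl1 (-1.08), Mrpl49 (-1.06) and Mrpl38 (-1.03). Mrpl11 belongs to the stalk base, where translation factors dock. Mrpl12, the protein of the stalk itself, fell less (-0.82 ± 0.13, adjusted p = 4.51e-05). In the small subunit Mrps2 fell by 1.33 ± 0.23, and Mrps12, a protein of the decoding centre, by 0.95 ± 0.13 (adjusted p = 1.59e-05).

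The fall was not limited to 1 subunit or origin. In the large subunit 33 of 44 genes were lower and 1 higher, with a median of -0.64, and in the small subunit 16 of 24 were lower and 0 higher, with a median of -0.63. Here Mrps18a and Mrps30 count in the large subunit, to which structures of the mammalian ribosome assign them. Of 43 genes with a bacterial counterpart, 32 were lower and 1 higher, and of 24 found in mitochondria only, 16 were lower and 0 higher. Mrpl55 was not sorted.

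A few members went against the rest. Mrpl14, a large subunit protein at the interface between the subunits, was the single member called higher in MEFs. It had 9.60 and 9.85 in Actin-GFP MEFs and 9.94 and 9.80 in Pou5f1-GFP MEFs, against 9.47 and 9.37 in ES cells (log2 0.38 ± 0.13, adjusted p = 0.0217). The groups did not overlap, but the call ended without either ES array, without the second Actin-GFP MEF array and without the first Pou5f1-GFP MEF array (adjusted p up to 0.138).

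Members with no call in this comparison included Mrpl33 (log2 0.01 ± 0.09), Mrpl13 (-0.04 ± 0.16), Mrpl53 (-0.07 ± 0.12) and Mrpl48 (-0.09 ± 0.11). Mrpl48 also had the smallest range of all members over the 8 group means, at 0.23. Mrps31 had the largest, at 2.14, and the median range was 0.90. Mrpl45, which is known to hold the ribosome to the inner membrane, was above background on 1 of 2 ES arrays and on no MEF array, so no fold is given for it here.

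**Figure D1:**
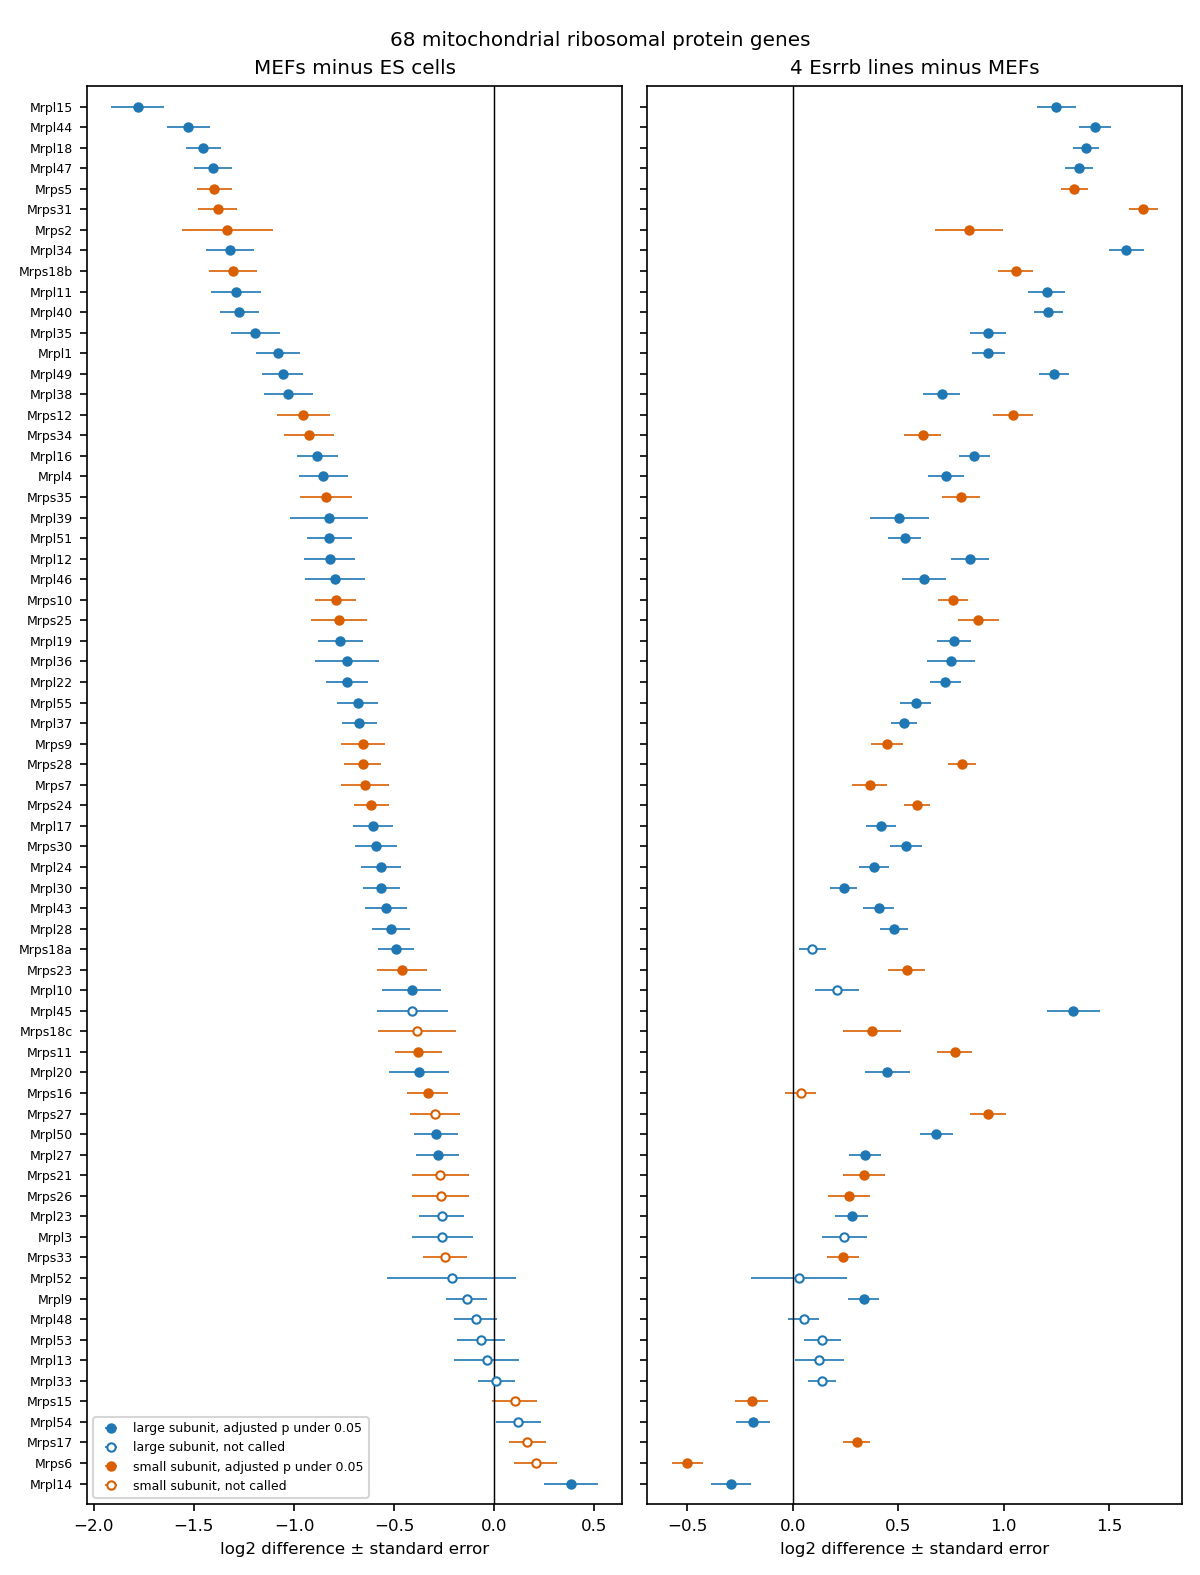
Log2 difference ± standard error (x axis) of each of the 68 tested members (rows, ordered by the left panel) for MEFs minus ES cells (left) and for the mean of 4 Esrrb lines minus MEFs (right). Blue points are large subunit genes, orange points small subunit genes, and filled points have an adjusted p under 0.05. In the left panel 49 filled points lie below 0 and 1 above, in the right panel 55 lie above 0 and 4 below.

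The 3 relatives of the bacterial protein S18 sit at different places in the mitochondrial ribosome, and they differed in size of change. Mrps18b fell most (above), Mrps18a fell by 0.49 ± 0.09 (adjusted p = 2.50e-04) and Mrps18c had -0.39 ± 0.20 (adjusted p = 0.105). The wide error of Mrps18c came with a gap between slides, since its second replicate was above the first in all 8 groups, by 0.37 on average. With slide as a block, Mrps18c had the same difference with an error of 0.10 (adjusted p = 0.00310). The same order of replicates in all groups was seen for 6 members with the second higher and 8 with the second lower (8.82% and 11.8%, against 4.48% and 5.30% of all genes tested). The largest of these gaps were those of Mrpl52 (0.65) and Mrps2 (0.44).

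With slide as a block, 57 members were called between MEFs and ES cells, 56 of them lower, where 65.1% of all genes were called in either direction. Within the first and the second slide alone, the median difference over members was -0.61 and -0.62. The count of calls fell to 33 (29.8% of all genes) when the mean of each line or MEF type was taken as 1 replicate, a fit in which ES cells are 1 sample, assumed to vary like the other groups. With Actin-GFP MEFs or Pou5f1-GFP MEFs alone, an alternative chosen after the data were seen, 47 and 50 members were called. The share of all genes called in these fits is not given here, so the counts show only how calls moved.

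Proliferation markers moved with the members. The 8 markers on the arrays, among them Mcm2 and Pcna, summed to 4510 to 5291 in MEFs and 11289 to 11942 in ES cells, and 6 were called lower and 1 higher (Mki67). Their part in the members' difference was not tested.

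**Figure D2:**
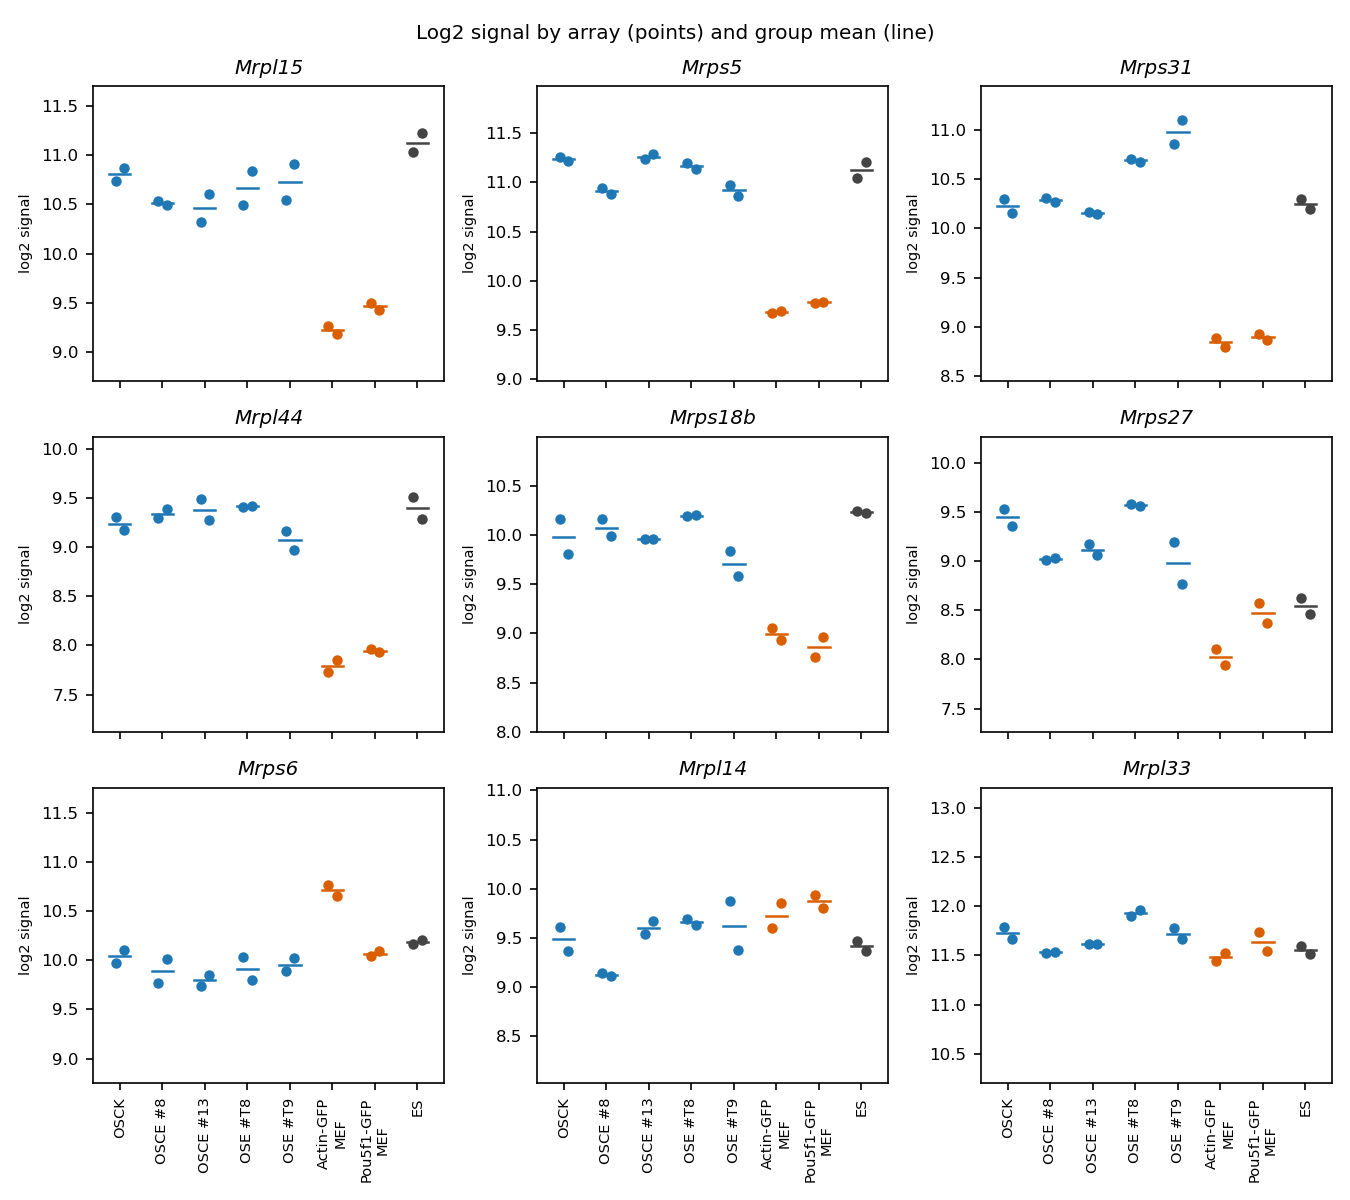
Log2 signal (y axis, each panel spanning the same height) of 9 members on each of the 16 arrays (points, 2 per group) with the group mean (line), for 5 iPS lines (blue), 2 MEF types (orange) and ES cells (grey). Mrpl15, Mrps5, Mrps31, Mrpl44 and Mrps18b are low in MEFs, Mrps6 is highest in Actin-GFP MEFs, and the Mrpl33 arrays of MEFs and ES cells overlap.

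The machinery around the mitochondrial ribosome was lower in MEFs too. All 10 tested genes for mitochondrial DNA upkeep and transcription were called lower (median -0.92), among them the transcription elongation factor Tefm (-1.72 ± 0.12) and the DNA helicase Twnk (-1.28 ± 0.12). Of 19 genes for ribosome assembly and rRNA modification, 15 were lower and 0 higher (median -0.57), with Gtpbp10 at -1.25 ± 0.15. Of 16 genes for protein import and chaperones, 11 were lower and 0 higher (median -0.72), such as the outer membrane channel Tomm40 (-1.46 ± 0.10). Translation factors had 6 lower of 12 and 0 higher (median -0.36), with Gfm2 at -1.35 ± 0.10 and the elongation factor Tufm at -0.85 ± 0.13. Ribosomal proteins under other names had 4 lower of 6 and 0 higher, among them Ptcd3 (-1.24 ± 0.14).

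Mitochondrial tRNA synthetases, which load amino acids onto tRNAs, had 12 lower and 1 higher of 15 (median -0.80). The exception was the leucyl enzyme Lars2, which was higher in MEFs (1.38 ± 0.14, adjusted p = 5.02e-07). It was also higher in the 5 iPS lines than in ES cells (2.04 ± 0.12, adjusted p = 1.71e-08). Its log2 signal was 6.56 and 6.53 in Actin-GFP MEFs and 6.72 and 6.75 in Pou5f1-GFP MEFs, against 4.97 and 5.54 in ES cells. The first ES value lay within the range of the lowest detected signal by array (4.89 to 5.05), so the size of both differences is uncertain.

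Lists that share a function but not the organelle's ribosome had smaller medians. Of 57 cytosolic ribosomal proteins, 12 were lower and 5 higher in MEFs (median -0.09). Of 71 nuclear genes of the respiratory chain, whose protein complexes also hold the products of mitochondrial translation, 20 were lower and 4 higher (median -0.13). Among regulators, the coactivator Pprc1 fell by 1.08 ± 0.09 and Gabpa, an ETS factor, by 0.81 ± 0.11, while Nrf1 fell by 0.36 ± 0.10. The difference between these lists and the members was not tested.

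**Figure D3:**
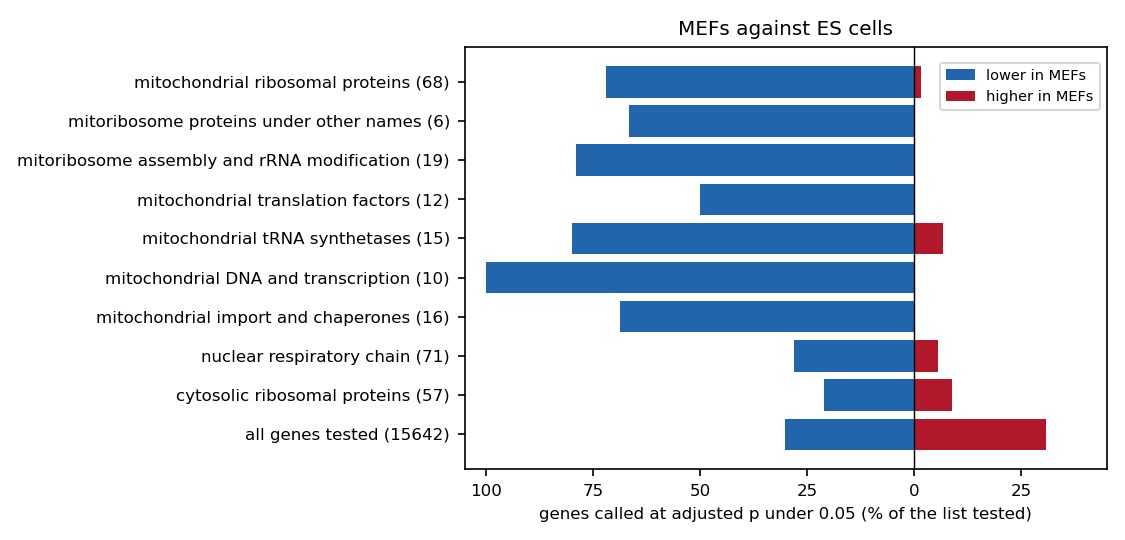
Share of tested genes of each list (rows, number tested in brackets) called lower (blue, to the left) or higher (red, to the right) in MEFs than in ES cells, in percent. Of the 68 mitochondrial ribosomal protein genes 49 were lower, against 12 of 57 cytosolic ribosomal protein genes and 20 of 71 respiratory chain genes.

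Some members share their start region with a neighbour on the other strand. Among the 65 members with a promoter, 24 (36.9%) had a gene on the opposite strand starting within 1000 bases, against 18.2% of tested genes. Of the neighbours of tested members 19 were tested, 2 of them members themselves, and 15 were lower in MEFs, 2 higher and 2 not called. Mrps12 starts 147 bases from Sars2, the mitochondrial seryl-tRNA synthetase, and the pair had -0.95 and -0.996. Mrpl43 starts 116 bases from Twnk and fell by 0.54 ± 0.10. Mrpl46 and Mrps11, whose shared start is shown above, had -0.80 ± 0.15 and -0.38 ± 0.12.

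Some pairs differed. Mrpl27, whose bacterial relative lies near the site of peptide bond formation, had -0.28 ± 0.11, while its neighbour Eme1, a DNA endonuclease subunit 48 bases away, had 0.55 ± 0.12. Mrpl14 was higher in MEFs and its neighbour Tmem63b, 131 bases away, lower (-0.59 ± 0.12). Calls were also counted by motif. Of 22 tested members with ETS letters 12 were lower (median -0.36), against 30 of 37 without (median -0.68), while of 10 with YY1 letters 9 were lower (median -0.66), against 33 of 49 without (median -0.56).

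Most members were higher in the iPS lines than in MEFs. In the mean of the 4 Esrrb lines, 55 of 68 members were called higher than in MEFs, 4 lower and 9 were not called, where 34.4% of all genes were called higher and 34.6% lower. The median log2 difference was 0.56 over members and 0.03 over all genes tested. For 45 members every line array lay above every MEF array and for 1 below, where 43.2% of all genes did not overlap. With the mean of each line or MEF type as 1 replicate, 45 members were called, where 43.6% of all genes were. Errors and p-values by gene below come from the spread within groups, not between lines. The MEF arrays are the same as in the comparison with ES cells, so the 2 sets of differences are not independent.

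The largest rise was that of Mrps31, at 3.17-fold (1.66 ± 0.07, adjusted p = 1.17e-11). Its log2 signal was 10.30 and 10.27 in OSCE #8, 10.16 and 10.14 in OSCE #13, 10.71 and 10.68 in OSE #T8 and 10.86 and 11.10 in OSE #T9, against 8.79 to 8.92 in the 4 MEF arrays. All lines were high, and the OSE lines were highest. Mrpl34, a small large-subunit protein with a bacterial counterpart, rose by 1.58 ± 0.08 (adjusted p = 2.28e-10). Its arrays ran from 9.97 to 10.52 in the Esrrb lines and from 8.50 to 8.67 in MEFs.

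Mrpl44 (1.43 ± 0.08), Mrpl18 (1.39 ± 0.06), Mrpl47 (1.36 ± 0.07), Mrps5 (1.33 ± 0.06), Mrpl15 (1.25 ± 0.09) and Mrpl49 (1.24 ± 0.07) followed, with adjusted p values no higher than 1.06e-08. Probes of Mrpl15 were called in both directions in this comparison (below). Mrpl45 was above background on all 8 arrays of the Esrrb lines and on no MEF array, and was at least 2.01-fold higher in the lines. This bound sets the line mean against the lowest signal of any detected probe on each MEF array, or the gene's own signal where higher. Measured means were 5.92 in the lines and 4.59 in MEFs, where the gene was below background, so no p-value is given. Mrpl45 passed the filter only through arrays of ES cells and iPS lines.

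Mrps6, a small subunit protein with a bacterial counterpart, was the clearest gene in the other direction. It had 9.77 and 10.01 in OSCE #8, 9.74 and 9.85 in OSCE #13, 10.03 and 9.80 in OSE #T8 and 9.89 and 10.02 in OSE #T9, against 10.77 and 10.65 in Actin-GFP MEFs and 10.04 and 10.09 in Pou5f1-GFP MEFs. The lines lay far below Actin-GFP MEFs and just below Pou5f1-GFP MEFs (-0.50 ± 0.08, adjusted p = 2.46e-05). Against Pou5f1-GFP MEFs alone Mrps6 had -0.18 (adjusted p = 0.125). Mrpl14 (-0.29 ± 0.09, adjusted p = 0.0117), Mrps15 (-0.20 ± 0.08, adjusted p = 0.0382) and Mrpl54 (-0.19 ± 0.08, adjusted p = 0.0474) were lower too, and each lost its call without 1 of several single arrays, with adjusted p up to 0.0748, 0.143 and 0.247.

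Each line that shared slides with the MEFs gave a like count. In OSCK, 47 members were higher than in MEFs and 2 lower (29.8% and 31.8% of all genes), with a median of 0.59, and in OSCE #8 50 were higher and 2 lower (29.7% and 29.7% of all genes), with a median of 0.58. With slide as a block 52 and 57 were called, where 66.2% and 64.0% of all genes were. Within single slides the medians were 0.61 and 0.54 for OSCK and 0.59 and 0.56 for OSCE #8. The members called lower were Mrps6 (-0.35 ± 0.11) and Mrpl54 (-0.29 ± 0.11) in OSCK, and Mrpl14 (-0.67 ± 0.13) and Mrps6 (-0.50 ± 0.11) in OSCE #8. Against Pou5f1-GFP MEFs alone Mrps6 had -0.03 in OSCK (adjusted p = 0.867) and -0.18 in OSCE #8 (adjusted p = 0.242). Taking the mean of each line or MEF type as 1 replicate gave fewer calls. This fit leaves OSCK or OSCE #8 as 1 sample, assumed to vary like the other groups, so no count is given.

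In the Esrrb lines against MEFs, by subunit, 34 of 44 large subunit genes were higher and 2 lower, and 21 of 24 small subunit genes were higher and 2 lower. The surrounding lists gave 13 higher of 15 tRNA synthetases and 0 lower (median 0.81), 17 higher and 1 lower of 19 assembly genes (0.57), 8 higher and 0 lower of 10 genes for mitochondrial DNA and transcription (0.91) and 12 higher and 1 lower of 16 import genes (0.75). Cytosolic ribosomal proteins had 23 higher and 3 lower of 57 (0.10) and the respiratory chain 29 higher and 6 lower of 71 (0.19). Proliferation markers summed to 11725 to 13912 in the Esrrb lines and 4510 to 5291 in MEFs, and their part in the difference was not tested.

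By group means, 52 of 68 members were lower in both MEF types than in all 6 pluripotent groups, where 28.5% of all genes were. For 2 members both MEF types were above all 6, as they were for 4270 of the 15642 genes tested. Over members the median log2 signal was 10.13 in OSE #T8, 10.08 in OSCE #8, 10.01 in OSCK, 9.90 in OSCE #13, 9.84 in OSE #T9, 9.45 in Actin-GFP MEFs, 9.42 in Pou5f1-GFP MEFs and 10.13 in ES cells. OSE #T8 held the highest group mean for 23 members and ES cells for 17, and the like counts over all genes are not given here.

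Against ES cells the lines differed at few members. In the mean of the 5 iPS lines, 5 members were higher and 5 lower than in ES cells, where 10.8% and 11.2% of all genes were, and the median was -0.04. With median scaling in place of quantile normalization the split was 3 higher and 6 lower. When the mean of each line or cell type was taken as 1 replicate limma called 0 members, with 8 at an unadjusted p under 0.05. For 3 of the lines slide and group cannot be told apart.

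Mrps27, a small subunit protein with pentatricopeptide repeats, which bind RNA, was high in every line. It had 9.53 and 9.36 in OSCK, 9.01 and 9.03 in OSCE #8, 9.17 and 9.06 in OSCE #13, 9.58 and 9.57 in OSE #T8 and 9.20 and 8.76 in OSE #T9, against 8.63 and 8.46 in ES cells. All 10 iPS arrays lay above both ES arrays (0.68 ± 0.11, adjusted p = 3.32e-04). Mrps27 had 8.11 and 7.94 in Actin-GFP MEFs and 8.58 and 8.37 in Pou5f1-GFP MEFs, so ES cells were near the second MEF type.

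Mrps17, a small subunit protein with a bacterial counterpart, was higher in the lines by 0.49 ± 0.08 (adjusted p = 4.82e-04). Its arrays ran from 11.11 to 11.47 in the iPS lines, against 10.84 and 10.89 in ES cells. Mrpl45 had 5.36 to 6.84 in the iPS lines, against 4.89 and 5.10 in ES cells. It was above background on all 10 iPS arrays and 1 of 2 ES arrays, and would not have met the filter without the iPS arrays. The ES values lay near the lowest detected signal by array (4.89 to 5.05). The size of its difference (0.98) is therefore uncertain and no p-value is given, though Mrpl45 counts among the 5 called higher. The calls of Mrps27 and Mrps17 held when any single array was left out.

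Mrpl50 (0.39 ± 0.10, adjusted p = 0.00943) and Mrps11 (0.36 ± 0.11, adjusted p = 0.0225) were higher as well. Lower in the lines were Mrpl15 (-0.49 ± 0.12, adjusted p = 0.00706), Mrps18a (-0.40 ± 0.08, adjusted p = 0.00243), Mrps34 (-0.35 ± 0.11, adjusted p = 0.0386), Mrpl30 (-0.32 ± 0.08, adjusted p = 0.00901) and Mrps16 (-0.27 ± 0.09, adjusted p = 0.0485). Each of these 7 lost its call without 1 of the ES arrays, with adjusted p up to 0.118 for Mrpl50, 0.318 for Mrps11, 0.142 for Mrpl15, 0.0526 for Mrps18a, 0.194 for Mrps34, 0.107 for Mrpl30 and 0.360 for Mrps16. Mrps34 and Mrps16 also lost it without single arrays of several lines.

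Line by line, OSCK had 3 members higher and 3 lower than ES cells, where 8.13% and 8.82% of all genes were. OSCE #8 had 5 higher and 4 lower (11.6% and 12.6% of all genes), and OSCE #13 had 1 higher and 6 lower (9.76% and 9.67%). OSE #T8 had 7 higher and 1 lower (10.4% and 10.3%), and OSE #T9 had 5 higher and 7 lower (10.7% and 9.66%). These 5 comparisons share the ES arrays. With median scaling the splits were 2 higher and 1 lower in OSCK, 2 and 4 in OSCE #8, 1 and 0 in OSCE #13, 3 and 0 in OSE #T8 and 2 and 11 in OSE #T9. With slide as a block, OSCK had 9 calls and OSCE #8 had 16 of 68, where 22.0% and 30.4% of all genes were called.

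Mrps27 was called in all 5 lines, from 0.44 ± 0.14 in OSE #T9 to 1.03 ± 0.14 in OSE #T8. Mrps17 was called in 4 lines, all but OSCE #13. Mrpl45 was called in the same 4, with the limit at the ES arrays given above. Mrps31 was higher than in ES cells in OSE #T8 (0.44 ± 0.11, adjusted p = 0.0102) and OSE #T9 (0.73 ± 0.11, adjusted p = 2.40e-04) and was not called in the other lines. Mrpl15 was lowest in OSCE #13 (-0.66 ± 0.15, adjusted p = 0.00598), and Mrps18a in OSE #T9 (-0.62 ± 0.11, adjusted p = 6.07e-04). Fibroblast markers were higher in the lines than in ES cells (4 of 10 called higher, 0 lower), and their part in these differences was not tested.

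**Figure D4:**
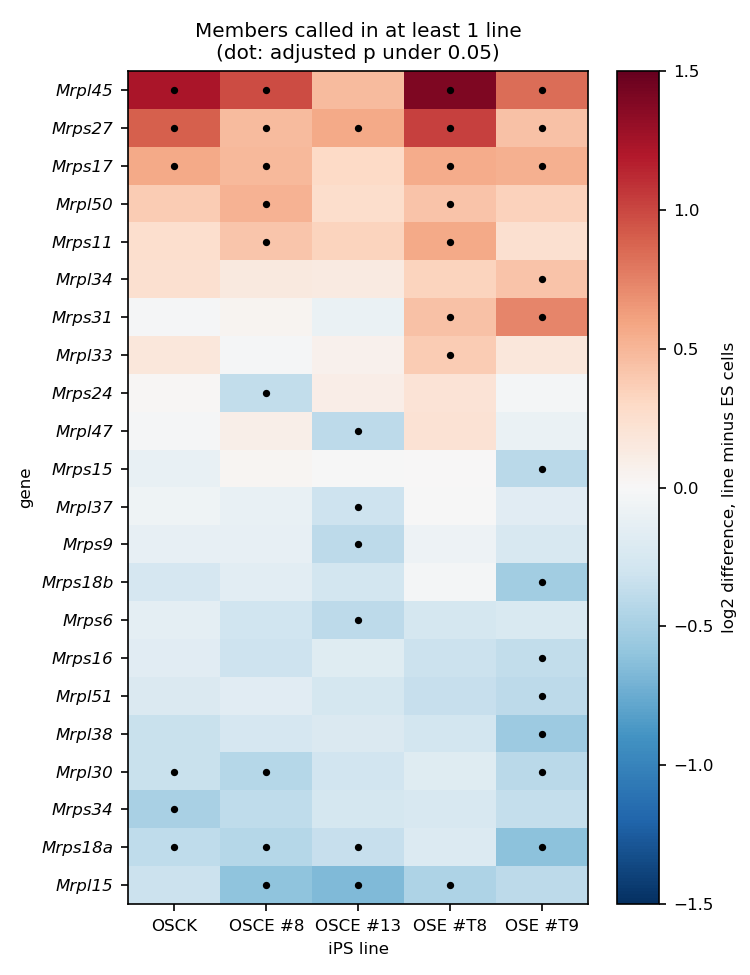
Log2 difference of each iPS line minus ES cells (colour, red higher and blue lower in the line) for the 22 members called in at least 1 line (rows), with a dot where the adjusted p is under 0.05. Mrps27 has a dot in all 5 lines, and Mrps31 has one in the OSE lines and in no other line.

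Lines made with different factors could be compared within shared slides. OSCE #8 and OSCK differ by an E in place of the K, and each is 1 line. In OSCE #8, 1 member was higher and 2 lower than in OSCK, where 8.57% and 8.84% of all genes were. Pluripotency markers summed to 9653 to 10361 in OSCE #8 and 13933 to 14441 in OSCK, macrophage markers to 1768 to 1820 in OSCE #8 and 921 to 927 in OSCK, and their part in these differences was not tested. Mrps24, a small subunit protein with a bacterial counterpart, had 12.17 and 12.13 in OSCE #8, against 12.53 and 12.54 in OSCK (-0.38 ± 0.10, adjusted p = 0.0146). Both OSCE #8 arrays were low. Mrps5 was lower by -0.32 ± 0.10 (adjusted p = 0.0439) and Mrps28 higher by 0.34 ± 0.11 (adjusted p = 0.0386). With any 1 of the 4 arrays left out limma called 0 members, with 5 to 8 at an unadjusted p under 0.05, and with slide as a block it called 7, and 23.1% of all genes. With median scaling the split was 0 higher and 1 lower.

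OSE #T8 and OSE #T9, whose label lacks the C, were set against OSCE #13 on the same slides. In the OSE lines 3 members were higher and 1 lower, where 10.2% and 9.98% of all genes were. Mrps31 had 10.71 and 10.68 in OSE #T8 and 10.86 and 11.10 in OSE #T9, against 10.16 and 10.14 in OSCE #13. All 4 OSE arrays were high (0.68 ± 0.10, adjusted p = 1.43e-04). Mrpl45 (0.65 ± 0.18, adjusted p = 0.0178) and Mrpl47 (0.45 ± 0.09, adjusted p = 0.00325) were also higher, and Mrpl17 was lower (-0.31 ± 0.10, adjusted p = 0.0442). With the mean of each line as 1 replicate limma called 0 members, with 1 at an unadjusted p under 0.05, and with slide as a block it called 8, and 26.2% of all genes. The median over members was 0.01, and -0.15 with median scaling, which gave 1 higher and 1 lower.

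The lines of one factor set differed as well. OSE #T8 had 4 members higher than OSE #T9 and 0 lower, where 5.40% and 7.09% of all genes were. Macrophage markers summed to 415 to 421 in OSE #T8 and 773 to 830 in OSE #T9, and their part in these differences was not tested. In each of these lines only 2 of the 7 markers were above background on both arrays, so the sums largely hold markers near background. Mrps27 had 9.58 and 9.57 in OSE #T8, against 9.20 and 8.76 in OSE #T9 (0.59 ± 0.14, adjusted p = 0.0135). The OSE #T9 arrays were low and lay apart from each other. Mrps18b (0.49 ± 0.14, adjusted p = 0.0297), Mrps15 (0.42 ± 0.13, adjusted p = 0.0464) and Mrps18a (0.42 ± 0.11, adjusted p = 0.0177) were higher too. Over members, 58 of 68 differences were above 0, a count for which no share of all genes is given here. The median was 0.18 over members and 0.005 over all genes tested. Within single slides it was 0.13 and 0.26 over members. The median signal over members was 9.95 on the first and 9.75 on the second OSE #T9 array, against 10.17 and 10.08 in OSE #T8. Without the second OSE #T9 array limma called 0 members, with 8 at an unadjusted p under 0.05, without the first 11, and without the first or second OSE #T8 array 1 or 0 (14 or 12 at an unadjusted p under 0.05). With slide as a block 9 were called, and 18.3% of all genes.

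The MEF types differed at a few members. In Actin-GFP MEFs 3 members were higher and 2 lower than in Pou5f1-GFP MEFs, where 5.33% and 6.17% of all genes were. Mrps6 had 10.77 and 10.65 in Actin-GFP MEFs, against 10.04 and 10.09 in Pou5f1-GFP MEFs (0.64 ± 0.12, adjusted p = 0.00220). The types did not overlap, and Mrps6 was called under every alternative run. Mrpl27 (0.52 ± 0.12, adjusted p = 0.0119) and Mrps10 (0.52 ± 0.12, adjusted p = 0.00811) were higher in Actin-GFP MEFs, and Mrpl55 (-0.61 ± 0.12, adjusted p = 0.00275) and Mrpl19 (-0.45 ± 0.13, adjusted p = 0.0344) lower. Leaving out 1 array gave 2 or 3 calls, slide as a block gave 9 calls (15.1% of all genes), and median scaling gave 3 higher and 0 lower. Macrophage markers summed to 7860 to 8474 in Actin-GFP MEFs and 1915 to 1921 in Pou5f1-GFP MEFs, and their part in these differences was not tested.

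Probes of one gene did not always move together. Of 30 members with more than 1 probe, 22 had more than 1 above background. Between MEFs and ES cells 16 of the 22 had all probes on one side of 0, and 0 had probes called in both directions. Counted by probe, 73 of 103 were called lower in MEFs, 1 higher and 29 were not called. The 4 probes of Mrps5 ran from -1.67 to -1.32, and the 5 of Mrpl15 above background on at least 15 arrays from -2.12 to -1.36, all called lower.

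Mrps10, a small subunit protein with a bacterial counterpart, had probes that disagreed on the MEF types. Its brighter probe was higher in Actin-GFP than in Pou5f1-GFP MEFs (0.52, adjusted p = 0.00997) and its second probe lower (-0.94, adjusted p = 7.16e-05). The second probe averaged 8.45 in Actin-GFP MEFs and 9.39 in Pou5f1-GFP MEFs. In the 5 iPS lines against ES cells, the brighter probe of Mrps10 had -0.02 and the second -1.22.

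The probes of Mrpl15 differed in the size of the gap between the lines and ES cells, and in the direction called against MEFs. In the Esrrb lines and in OSCK, each against MEFs, Mrpl15 alone of the 22 members had probes called in both directions. That count takes in every probe above background on at least 2 arrays, and so also the seventh probe of Mrpl15, which was under the detection floor in the lines. The count by itself therefore shows no measured change in the opposite direction. In the 5 iPS lines against ES cells, the 5 probes of Mrpl15 above background on at least 15 arrays ran from -1.53 to -0.41. Its seventh probe was above background on 4 arrays. That probe averaged 4.45 to 4.49 in the lines and 4.44 in Actin-GFP MEFs, under the lowest signal of any detected probe (4.89 to 5.05 by array), so no difference is given for it. It averaged 5.36 in Pou5f1-GFP MEFs and 6.43 in ES cells. The transcripts that these probes match were not analysed here.

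**Figure D5:**
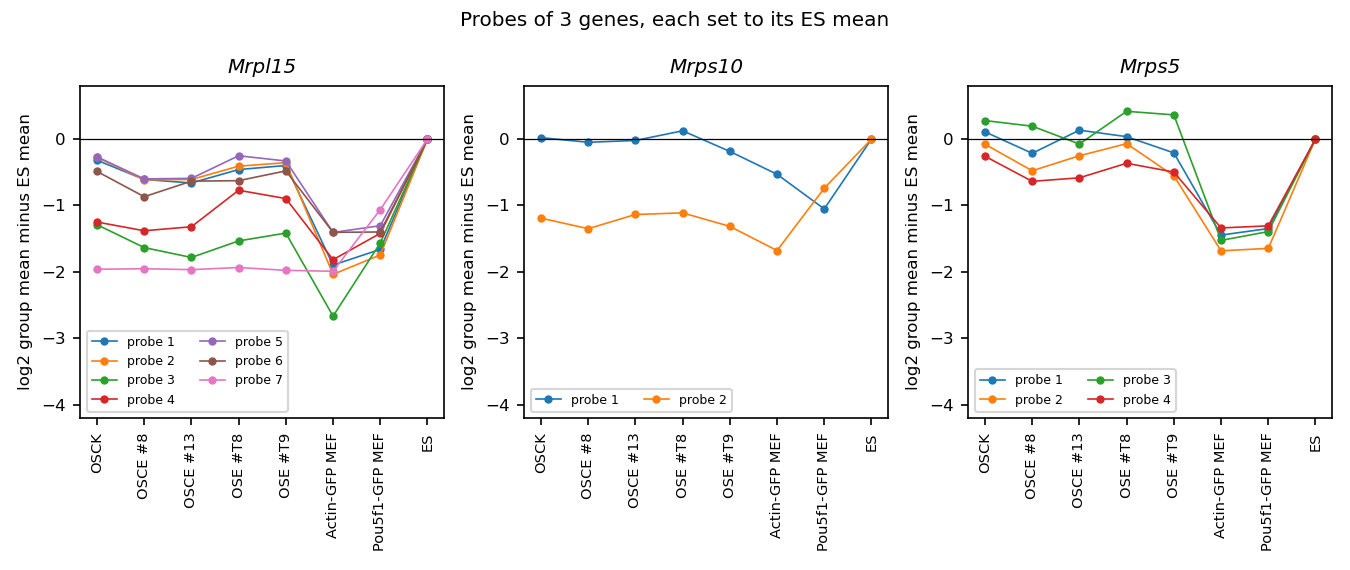
Group mean minus ES mean (y axis, log2) for each probe (lines) of Mrpl15, Mrps10 and Mrps5 above background on at least 2 arrays, by group (x axis). The Mrps5 probes are all low in both MEF types, while the second Mrps10 probe lies below the first in the lines and above it in Pou5f1-GFP MEFs. The seventh Mrpl15 probe was not above the detection floor in the lines and in Actin-GFP MEFs, so its points there are no measured differences.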

How the data were processed

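The values deposited per array were the summary intensity of each probe without normalization, per the file headers (BeadStudio export), and a detection score, a fraction from 0 to 1. The labels' protocols give 500 ng of RNA per sample. Here, normexp background correction with detection p values (1 minus the detection score), an offset of 16, quantile normalization and log2 were applied with limma 3.58.1 in R 4.3.3. A gene was read from its probe with the highest mean, and kept if above background (p under 0.01) on at least 2 arrays. One mean per group was fitted over all 16 arrays (8 residual degrees of freedom) for 14 contrasts, with Benjamini-Hochberg adjustment over 15642 genes. Errors are standard errors. The fit was tested on simulated data. Of 34325 target names, 16079 matched a RefSeq symbol and 6654 a synonym. A further 6 probes under older names of members were kept apart.

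The labels call the replicates biological, without saying how cultures were separated. The p-values measure the spread between the 2 replicates within groups. They do not measure the spread between lines or MEF types where a contrast averages these. Deviations of same-numbered samples correlated above 0 in all 28 pairs of groups (0.0985 to 0.431), and above 0.1 in 27. The number was not used as a pairing, because a correlation above 0.1 was asked of every pair. Within a set the number equals the slide. Fits with the number or the slide as a block gave more calls in several contrasts (below). Members named are, per contrast, up to 8 called in each direction with the largest change and no overlap, all called where under 5 were, genes with several detected probes, the S18 relatives and the extremes of level and range. Others named outside this rule were chosen after their values were seen. The members and lists were chosen with earlier results of these data known. Alternatives were the background correction, offset, scaling, filter, probe choice, replicate and slide blocks, 1 mean per line and leaving out each array. The number of arrays limits the precision. The series' table of processed values was not used here.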

Additional observations from a re-analysis of the deposited data

Results flagged for a closer look

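These members differed between lines or between MEF types by a direct test of the difference (limma, adjusted p under 0.05). Between OSCE #8 and OSCK they were Mrps28 (log2 0.34), Mrps24 (-0.38) and Mrps5 (-0.32), and each of these calls was lost when any 1 of the 4 arrays was left out. Between the OSE lines and OSCE #13 they were Mrps31 (0.68), Mrpl45 (0.65), Mrpl47 (0.45) and Mrpl17 (-0.31), of which Mrps31 and Mrpl47 kept their call with any 1 of the 6 arrays left out. Between OSE #T8 and OSE #T9 they were Mrps27 (0.59), Mrps18b (0.49), Mrps15 (0.42) and Mrps18a (0.42), all lost without the second OSE #T9 array. Between Actin-GFP and Pou5f1-GFP MEFs they were Mrps6 (0.64), Mrps10 (0.52), Mrpl27 (0.52), Mrpl19 (-0.45) and Mrpl55 (-0.61), of which only Mrps6 kept its call with any 1 of the 4 arrays left out. The second probe of Mrps10 had the opposite sign.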

How the results depend on the processing

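Of 216 calls of a named member in a contrast, 99 held under all alternatives run, 117 were lost under at least 1 and 0 reversed. The cause of the moves below was not tested. No share of all genes called is given in this section, so its counts describe how calls moved, not members against other genes. The shares with slide as a fixed block stand above. With any 1 array left out, the members called were 44 to 49 for MEFs against ES cells, 55 to 58, 43 to 49 and 45 to 50 for the Esrrb lines, OSCK and OSCE #8 against MEFs, 3 to 13 for the iPS lines against ES cells, and, by line against ES cells, 3 to 6 for OSE #T8, 4 to 18 for OSE #T9, 4 to 8 for OSCE #8, 0 to 3 for OSCE #13 and 3 to 4 for OSCK. They were 0 in each case for OSCE #8 against OSCK, 2 to 6 for OSE lines against OSCE #13, 0 to 11 for OSE #T8 against OSE #T9 and 2 to 3 for the MEF types. With 1 mean per line as replicate, the counts were 33 for MEFs against ES cells, 30 for OSCK and 28 for OSCE #8 against MEFs, and 0 for the iPS lines against ES cells and for OSE lines against OSCE #13.

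Against ES cells, the replicate block gave 17 members for the iPS lines, 10 for OSCK, 17 for OSCE #8, 11 for OSCE #13, 13 for OSE #T8 and 19 for OSE #T9, and every detected probe gave 21, 13, 20, 18, 17 and 21 probes. Median scaling gave 3 for OSCK, 1 for OSCE #13 and 3 for OSE #T8, and OSCE #8 had 15 without background correction, 15 with an offset of 50 and 16 with slide as a fixed or random block. For OSCE #8 against OSCK the replicate block gave 6, slide as a fixed block 7, as a random block 5, and median scaling 1. For OSE lines against OSCE #13 the replicate block gave 7, median scaling 2, and 8 were called without background correction, with an offset of 50, over every detected probe and with either slide block. For OSE #T8 against OSE #T9 the replicate block gave 10, slide as a fixed block 9, as a random block 11, no background correction 8, an offset of 50 13 and no filter 9. For the MEF types the replicate block gave 8, slide as a fixed block 9, every detected probe 10 and median scaling 3. For OSCK against MEFs every detected probe gave 75. The median over members under median scaling was -0.51 for MEFs against ES cells and 0.38 for the Esrrb lines against MEFs, and it turned to -0.04 for OSE #T8 against ES cells, against 0.04 with quantile normalization.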
